A study of Mus musculus with 11 samples.

Results

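The cells described here were the cone bipolar cells of the mouse retina that carried UMIs of a Grik1 Scgn group of genes. Members were chosen by marker genes measured in the same cells: a member had more than 300 detected genes, at least 1 UMI in 2 or more of Grik1, Nxph1, Slitrk6, Gsg1, Fezf2, Glra1, Otor, Scgn and Tacr3, at most 1 of the ON bipolar genes Pcp2, Trpm1 and Grm6 detected, and no UMI of the amacrine genes Gad1, Gad2 and Slc6a9. Of 20033 cells with more than 300 genes, 862 cells met the rule. The 11 mice were C57BL/6J pups of P10, and each was labelled as a separate sample. The control mice (n = 3) received PBS. The Phase I ROP mice (n = 3) were littermates made hyperglycemic with streptozotocin (STZ), which destroys insulin-producing pancreatic cells, as a model of delayed retinal vessel growth. The mice of the ω-3 diet (n = 2) and the ω-6 diet (n = 3) were also given STZ, and came from litters split between nursing dams on either diet, so that every diet mouse was a Phase I ROP mouse. Whole retinas were dissociated with papain and captured with inDrop v3, a droplet assay in which each RNA molecule is counted once by its unique molecular identifier (UMI).

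Bipolar cells carry the signals of rods and cones to amacrine and ganglion cells. ON types sense glutamate through the metabotropic receptor Grm6 and the channel Trpm1, and respond to light onset, whereas OFF types use AMPA and kainate receptors such as Grik1 and respond when light dims. At P10, before the eyes of a mouse open, bipolar axons have reached their layers and their synapses are still maturing. The class was compared throughout with ON bipolar cells of the same mice, which were cells with UMIs of 2 or more of Pcp2, Trpm1 and Grm6, at most 1 of the 9 marker genes and none of the amacrine genes (915 cells).

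Each control mouse gave 80 to 123 members, each Phase I ROP mouse 60 to 90, each mouse of the ω-3 diet 58 or 71, and each mouse of the ω-6 diet 45 to 94. The median member held 2297 UMIs, with medians of 1754 to 3345 in single mice. UMIs summed over the members of a mouse ranged from 122440 to 301866, and all changes below were computed on these sums, so that the mouse was the replicate. The libraries held 2565568 to 6517776 UMIs in all. Of 18872 barcodes, 1157 were found in more than 1 library, and 5 were shared between members of different libraries.

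The cell type was checked against markers that the rule did not use. Otx2, a transcription factor of photoreceptors and bipolar cells, was detected in 68.1% of members, and the bipolar transcription factors Neurod4 and Lhx4 in 48.0% and 44.1%. Among cells with a UMI of Gad1, Gad2 or Slc6a9, where Lhx4 should be lacking, it was found in 3.47% of cells, although those cells were deeper (a median of 3170.5 UMIs against 2297). Prdm8, also counted as a bipolar gene, was found in 16.1% of members and in 13.8% of those cells. Of the OFF cone bipolar markers, Vsx1 was found in 26.2% of members, Irx6 in 11.8%, Neto1 in 6.50%, Erbb4 in 2.90% and Syt2 in 2.32%. Isl1, a transcription factor of ON bipolar cells, was detected in 14.6% of members and in 86.1% of ON bipolar cells. The amacrine genes Tfap2b and Pax6 were found in 1.51% and 4.87% of members. Sag, the rod arrestin, was found in 21.2% of members, in 16.4% of ON bipolar cells, a type that should lack the gene, and in 64.6% of the remaining cells, with median depths of 2297, 2855 and 1233.5 UMIs.

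The rule admitted any 2 of its 9 marker genes, and the members differed in which they held. Scgn, which encodes the calcium-binding protein secretagogin, was detected in 64.5% of members, the kainate receptor subunit Grik1 in 55.7% and Gsg1 in 53.5%. Otor was found in 24.8%, the transcription factor Fezf2 in 24.6%, the adhesion protein gene Slitrk6 in 24.3% and the glycine receptor subunit Glra1 in 22.9%. Tacr3, a tachykinin receptor, and Nxph1, a neurexin ligand, were rarer at 16.5% and 15.3%. Grik1 and Gsg1 were found together in 273 members, and Nxph1 and Otor in 5. Of the cells with Tacr3, 10 also held Gsg1, whereas 113 held Scgn. Exactly 2 of the 9 marker genes were detected in 391 members, just inside the rule, and 801 cells that met every other criterion held 1 marker gene and were left out. Of the members, 209 held 1 of the 3 ON genes and 653 held none, while 135 cells with 2 or more marker genes were left out because they held 2 or more ON genes. A further 125 cells were left out for an amacrine gene.

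Genes outside the rule that led the class were ranked by their lowest ratio, over the 11 mice, to all other kept cells. As the members were chosen by genes of the same cells, these levels are a description without a test. The 20 leading genes included transcription factors (Vsx1, Irx6, Lhx3, Lhx4 and Zfhx4), guidance and adhesion genes (Slit2, Epha3, Cdh8 and Esam), the GABA receptor subunits Gabrr1 and Gabrr3, and the nicotinic receptor subunit Chrna6. A730046J19Rik was at 306.9 CPM (UMIs of the gene scaled to a common total of UMIs) over all members and at 43.5 CPM in ON bipolar cells. Vsx1, which is known for its role in OFF cone bipolar cells, was at 312 CPM in the class and 130.2 CPM in ON bipolar cells. Slit2, a secreted guidance cue, was at 616.4 CPM against 61.3 CPM, and was found in 41.4% of members and 11.4% of ON bipolar cells. Sphkap, which encodes an anchoring protein of protein kinase A, was at 1480.9 CPM in the class and 364.8 CPM in ON bipolar cells. Of the 20 genes, 19 were higher in the class than in ON bipolar cells in 11 of 11 mice, and Gabrr1 was lower in the class (272.8 CPM against 348.5 CPM). Esam had no UMI in 915 ON bipolar cells, which allows a share of up to 0.328% of cells with a UMI, and it was detected in 16.2% of members.

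**Figure D1:**
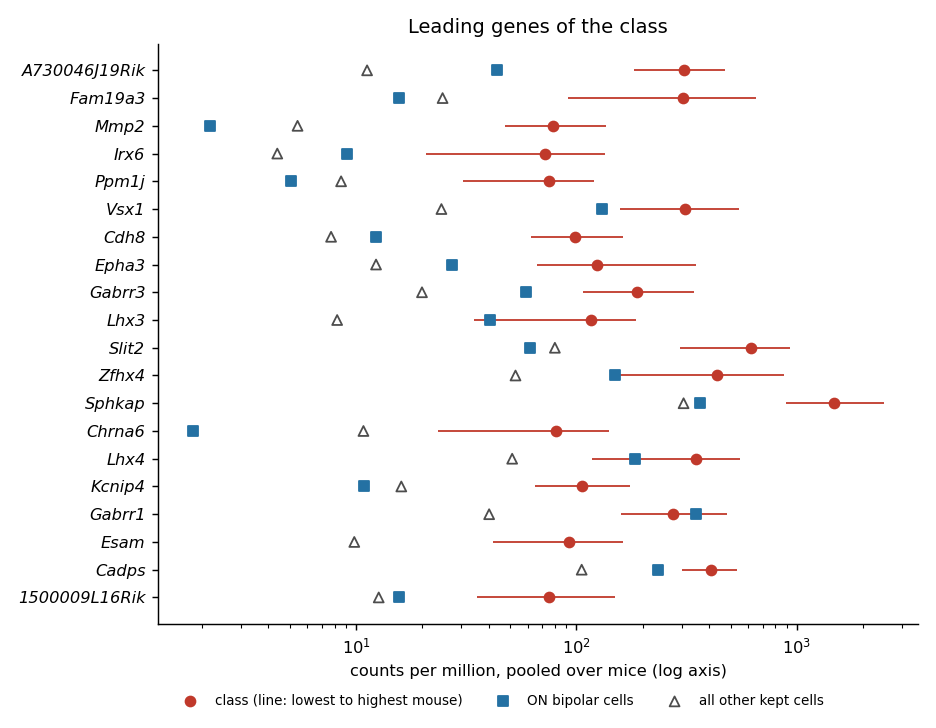
Level of the 20 leading genes in the class (circles, with a line from the lowest to the highest of 11 mice), in ON bipolar cells (squares) and in all other kept cells (triangles), in CPM on a log axis. The circle lies to the right of the square for every gene drawn with both except Gabrr1, and Esam has no square since no UMI was found.

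When the members were clustered on their own, with each gene centred within its mouse, 10 subsets were found. They are given by number and leading genes, without cell type names and without a test, since the same genes made them. Subset 1 (235 cells) was led by Nnat and Sall3, and held Grik1 in 87.7% and Otor in 46.4% of its cells, with Vsx1 in 1.70% of cells. In subset 2 (228 cells) Scgn was found in 91.2% and Vsx1 in 64.9% of cells, and Irx6, Cdh8 and Slit2 were also among its leading genes. Grik1 was also found in 54.4% of the cells of subset 2, and Nxph1 in 31.6% against 0.426% in subset 1. Subset 3 (127 cells) held Scgn in 89.8% of cells, but also the ON genes Isl1 in 74.8% and Pcp2 in 48.8%, and Grik1 in 15.0%. Scgn was also found in 17.2% of ON bipolar cells, and the leading genes of subset 3 went against an OFF label. Subset 4 (83 cells) was led by adhesion genes and transcription factors, with Prdm8 in 59.0%, Pcdh10 in 54.2% and Pcdh17 in 49.4% of cells, and Scgn in 69.9%.

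The other subsets were smaller and less clear. Subset 6 (49 cells) was led by Gm42418, CT010467.1 and AY036118, and subset 8 (22 cells) had a median of 980.5 UMIs and no leading gene in over 36.4% of its cells. In 4 subsets the leading genes were those of other retinal cells. Subset 5 (78 cells) was led by rod genes such as Nr2e3, Pdc and Prph2, with Pdc in 98.7% of its cells, and subset 7 (23 cells) by the cone genes Opn1sw, Pde6h and Arr3. Subset 9 (9 cells) was led by Sparc and Igfbp7, and subset 10 (8 cells), with a median of 18670.5 UMIs, by Nefl, Stmn2 and Calb2. Lhx4 was nevertheless found in 53.8% of the cells of subset 5 and in 65.2% of those of subset 7. These 118 cells met the rule and are members, and each count of changed genes was also made with the other 744 members alone, a choice made after seeing the data. The subsets held different shares of the members in the groups, which are given without a test since their leading genes also differed in level. Subset 5 made up 0%, 0% and 1.63% of the members in the control mice and 6.76%, 6.67% and 11.1% in the Phase I ROP mice. Subset 3, which stayed among the 744 members, made up 22.5%, 20% and 17.9% in the control mice and 9.46%, 8.33% and 13.3% in the Phase I ROP mice. The part of these shares in the changes of single genes was not tested for subset 3.

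**Figure D2:**
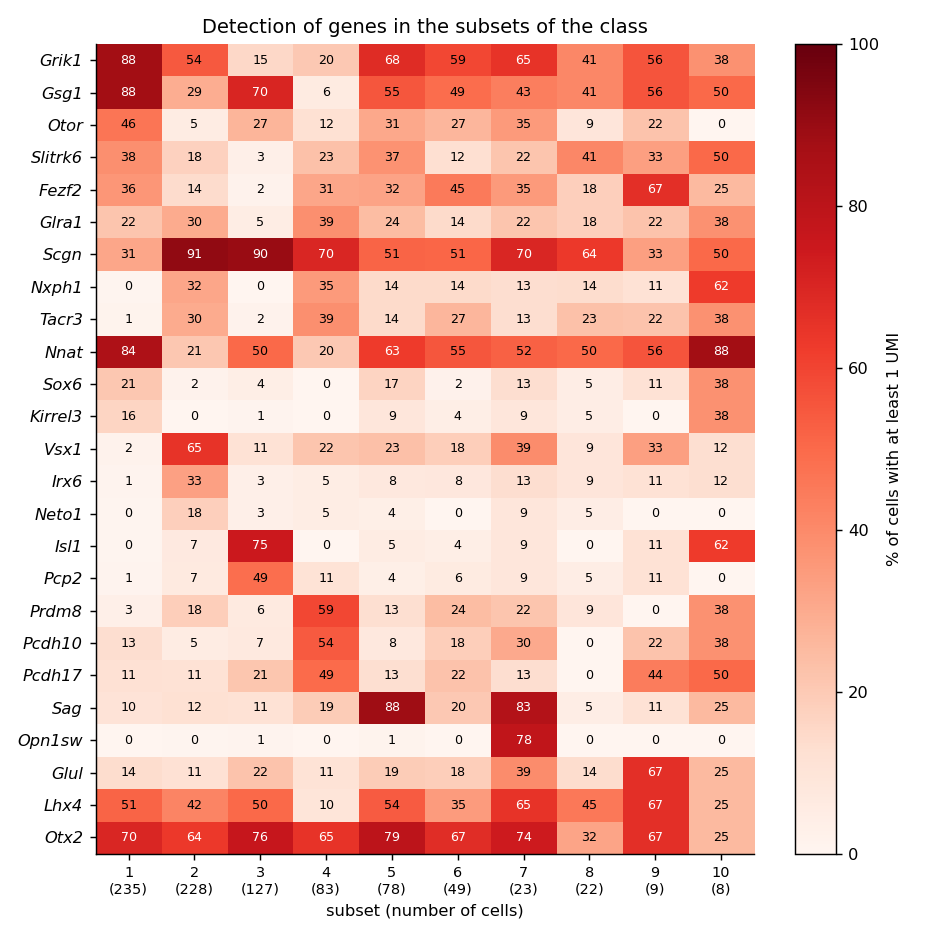
Share of cells with at least 1 UMI of a gene (rows) in each of the 10 subsets of the class (columns, with the number of cells). Grik1 and Gsg1 reach 88% in subset 1, Scgn 91% in subset 2, Isl1 75% in subset 3, Sag 88% in subset 5 and Opn1sw 78% in subset 7.

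The first comparison asked how the class differed between Phase I ROP and control mice. Its share of all kept cells was 9.62%, 10.2% and 8.24% in the 3 control mice and 3.63%, 4.29% and 3.89% in the 3 Phase I ROP mice. The groups did not overlap, and the means were 9.34% ± 0.996 and 3.94% ± 0.335 (SD, n = 3 each), and the exact permutation test, two-sided, gave p = 0.1, which 3 mice against 3 cannot go below. With every cell thinned to 600 UMIs, which kept 2993 of 3205 control cells and 4925 of 5748 Phase I ROP cells, the shares were 4.62% ± 0.345 in control and 2.73% ± 0.297 in Phase I ROP (exact permutation p = 0.1). Shares of all cells also depend on how many cells of other types were captured. Among the class and ON bipolar cells together, the class made up 51.8% ± 2.17 in control and 46.2% ± 2.91 in Phase I ROP (SD, n = 3 each), and the mice overlapped (exact permutation p = 0.2). Without the 118 cells of subsets 5, 7, 9 and 10 the shares were 51.4% ± 2.13 and 42.5% ± 2.54, and the mice did not overlap (exact permutation p = 0.1). These cells were left out of the class only, 1, 1 and 3 in the control mice and 10, 8 and 14 in the Phase I ROP mice. All ON bipolar cells were kept, so this step by itself lowered the share more in Phase I ROP. With 3 or more marker genes asked for, the difference between the groups was of the opposite sign. The shares were then 31.4% ± 2.38 in control and 35.7% ± 2.14 in Phase I ROP (exact permutation p = 0.2).

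The genes of the rule, which decide who is a member, differed in level between these groups, and their levels are a description without a test. From here on, levels by mouse are CPM after TMM scaling, unless stated otherwise. Slitrk6 had a mean of 47.4 CPM in control and 383.5 CPM in Phase I ROP mice, Glra1 40.5 and 215.5 CPM, and Grik1 612 and 1032.7 CPM. In the other direction, Scgn was at 1353.4 CPM in control and 728.7 CPM in Phase I ROP, Gsg1 at 887.3 and 508.6 CPM, and Pcp2 at 347 and 60.6 CPM. Members with 3 or more marker genes made up 41.6% to 43.8% of members in the control mice and 62.2% to 66.7% in the Phase I ROP mice. Some marker genes were thus higher and others lower in Phase I ROP. Fewer cells of the class and a changed detection of its marker genes cannot be told apart in the shares above.

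**Figure D3:**
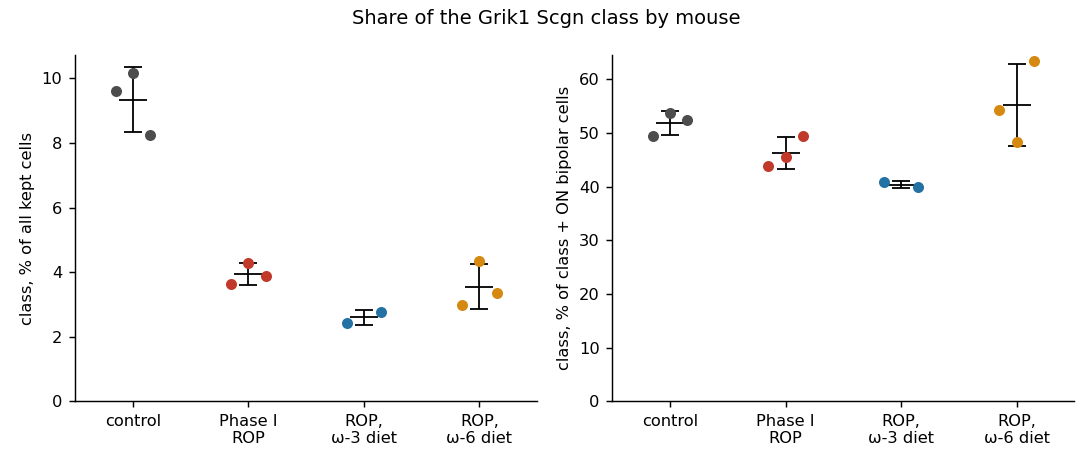
Members as a share of all kept cells (left) and of members plus ON bipolar cells (right), in percent; each point is a mouse, and bars give the mean and SD. On the left the 3 control mice lie between 8.24% and 10.2%, above all 8 mice given STZ, while on the right control and Phase I ROP mice overlap.

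Of 4614 genes tested between Phase I ROP and control mice in the class, edgeR's quasi-likelihood test called 1368 genes (29.6% of those tested) at an adjusted p under 0.05, of which 691 were higher (15.0%) and 677 lower (14.7%) in Phase I ROP. The median log2 change over all tested genes was 0.01. Without the 118 cells of subsets 5, 7, 9 and 10, 1341 of 3858 genes were called. The count was 883 when Phase I ROP mouse 2 was left out and 839 when mouse 3 was, with 2 mice in that group. Among the lists of which nearly all members were tested, 49 of 74 nuclear-encoded respiratory chain genes and 22 of 77 cytosolic ribosomal proteins were called lower, and none of either higher. Genes that pass the filter only in the group where they are high are called in that direction more readily, so counts over lists with few tested members are given as descriptions, to be read beside the shares called over all genes. Most genes named below were chosen as called genes whose mice did not overlap, so that a lack of overlap adds no support.

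Immediate early genes, which are transcribed within minutes of a stimulus, are encoded by loci such as Jun (chr4:95049034-95052222, minus strand, GRCm38) and Btg2 (chr1:134075170-134079120, minus strand). Of 32 genes in this list, 8 passed the filter on low counts, mostly through the Phase I ROP mice, since in the 3 control mice together Jun had 7 UMIs, Egr1 12, Btg2 14 and Dusp5 12. That 7 of these 8 were called higher was thus shaped by the filter and is no measure of the list. The promoters of 3 called members, Jun, Btg2 and Dusp5, are shown as examples of the list, as the 250 bases before the RefSeq start (GRCm38.p6), 5′ to 3′ on the strand of the gene. Capitals mark the letters TGACG on either strand, the core to which CREB-type factors bind, and these letters lie in 17.8% of 32851 mouse promoters of this length. In Btg2 they belong to a whole cyclic AMP response element (CRE), TGACGTCA, which 1.55% of all promoters hold. Dusp5 holds TGACG once, on the other strand, and Jun holds neither, nor does any of the 3 hold the AP-1 site TGACTCA (4.46% of all promoters). These are descriptions of the exact letters in this window, and variants of them were not searched for.
Jun, chr4:95052223-95052472: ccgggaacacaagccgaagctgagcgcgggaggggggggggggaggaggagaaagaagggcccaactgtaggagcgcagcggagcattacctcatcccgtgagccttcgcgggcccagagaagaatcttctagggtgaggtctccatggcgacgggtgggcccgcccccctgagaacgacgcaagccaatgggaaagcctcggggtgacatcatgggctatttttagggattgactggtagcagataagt
Btg2, chr1:134079156-134079405: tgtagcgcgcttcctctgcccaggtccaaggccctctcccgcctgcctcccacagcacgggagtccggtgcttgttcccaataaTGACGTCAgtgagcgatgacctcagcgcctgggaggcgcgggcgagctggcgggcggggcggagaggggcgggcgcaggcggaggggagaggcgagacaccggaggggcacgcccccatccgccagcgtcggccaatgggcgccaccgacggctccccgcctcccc
Dusp5, chr19:53528895-53529144: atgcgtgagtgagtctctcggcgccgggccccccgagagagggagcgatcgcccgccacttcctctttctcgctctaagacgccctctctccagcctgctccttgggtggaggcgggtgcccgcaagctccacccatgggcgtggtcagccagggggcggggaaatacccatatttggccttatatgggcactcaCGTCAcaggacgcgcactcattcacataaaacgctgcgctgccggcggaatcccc

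Jun, a subunit of the AP-1 transcription factor, was at 14.0, 8.65 and 9.08 CPM in the control mice and at 199.7, 169.1 and 289.6 CPM in the Phase I ROP mice. All Phase I ROP mice were above all control mice, with a log2 change of 4.46 ± 0.46 (SE) and adjusted p = 7.476e-06. In the diet groups Jun was at 95.4 to 246.2 CPM, also above every control mouse. Egr1, a zinc finger transcription factor, rose by 3.26 ± 0.54 (adjusted p = 0.000442), Btg2, an antiproliferative gene, by 3.05 ± 0.64 (adjusted p = 0.0023) and Dusp5, a phosphatase of MAP kinases, by 2.84 ± 0.44 (adjusted p = 0.00028) on the log2 scale. Fos, Junb and Jund were called with smaller changes of 2.60, 1.37 and 1.40. Sums over a list are also CPM after TMM scaling, whereas sums over the markers of a cell type, given further below, are CPM before it. Summed over the 32 genes, the level was 251.2 to 410.8 CPM in the control mice and 1448.4 to 1989.8 CPM in the Phase I ROP mice. In the 5 diet mice the sum was 1742.6 to 2522.9 CPM, also above every control mouse. Without the 118 cells, Jun, Jund, Btg2 and Dusp5 were tested and called higher.

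Of 22 transcription factors of bipolar cells, 19 were tested, 9 were called higher, beside 15.0% of all tested genes, and none lower, with a median log2 change of 0.89. Six3, which acts in eye development, was at 153.5, 164.3 and 131.6 CPM in the control mice and 266.3, 419.1 and 632.9 CPM in the Phase I ROP mice, so that the groups did not overlap (log2 change 1.71 ± 0.30, adjusted p = 0.000656). Crx, shared by photoreceptors and bipolar cells, rose by 1.88 ± 0.29 (adjusted p = 0.00026), Nfib by 1.58 ± 0.31 (adjusted p = 0.00153) and Zfhx4 by 1.47 ± 0.24 (adjusted p = 0.000432). Vsx1, Otx2, Lhx4 and Prdm8 were among the others called higher, by 0.99 to 1.30. Isl1 was the member with a value below 0, a log2 change of -0.64 ± 0.28 that did not pass the test (adjusted p = 0.0892). Without the 118 cells, 11 of 18 tested members were called higher. Of the 20 leading genes of the class, 8 were called higher and none lower, beside 15.0% and 14.7% of all tested genes, with Fam19a3, a secreted protein gene, showing the largest change (144.8 CPM ± 35.7 in control and 464.1 CPM ± 109.9 in Phase I ROP, SD, n = 3 each).

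Synaptic genes were described by 3 lists. Of 33 genes for glutamate receptors and their auxiliary subunits, 6 were tested, 3 called higher and 1 lower, beside 15.0% and 14.7% of all tested genes. Cacng2 and Cacng7, which encode AMPA receptor auxiliary subunits, rose by 2.70 ± 0.50 (adjusted p = 0.000979) and 2.19 ± 0.45 (adjusted p = 0.00206), and the AMPA receptor subunit Gria1 by 1.54 ± 0.46 (adjusted p = 0.0195). With 16 UMIs of Cacng2 and 22 of Cacng7 in all control mice, these 2 passed the filter mostly through the Phase I ROP mice. The kainate receptor subunit Grik5 fell by 1.18 on the log2 scale (SE 0.35, adjusted p = 0.0187), from 140.7 to 172.1 CPM in the control mice to 59.0 to 66.2 CPM in the Phase I ROP mice. Of 9 tested GABA and glycine receptor genes, 3 were called higher, among them Gabrr1 and Gabrr3, by 0.90 and 0.88, and 6 were not called, beside 15.0% of all tested genes called higher. Of 20 tested genes of the ribbon synapse and transmitter release, 4 were called higher, a share near the 15.0% of all tested genes, and none lower, with a median of 0.47. Among them were Sv2a, a synaptic vesicle protein (135.6 CPM ± 36.9 in control and 451.2 CPM ± 30.8 in Phase I ROP, SD, n = 3 each), Ctbp2, whose product includes the ribbon protein RIBEYE (log2 change 1.84 ± 0.39), and the calcium sensor Syt1 (0.62 ± 0.20). Members such as Rims2 and Snap25 did not pass the test, with values of 0.19 and -0.16. Gjd2, the gap junction protein connexin 36, was among the 5 largest increases of genes with at least 20 CPM in both groups, from 27.2 to 43.2 CPM in the control mice to 173.1 to 305.7 CPM in the Phase I ROP mice (log2 change 2.97 ± 0.38, adjusted p = 7.264e-05).

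Adhesion and guidance genes formed the longest neuronal list. Of 68 members 33 were tested, and 12 of these were called higher and 1 lower, beside 15.0% and 14.7% of all tested genes. Flrt3, a ligand of Unc5 and latrophilin receptors, rose by 2.79 ± 0.52 (adjusted p = 0.00104), the postsynaptic protein gene Lrrtm2 by 2.73 ± 0.61 (adjusted p = 0.00343), Dscam, which guides the spacing and layering of retinal neurons, by 2.16 ± 0.41 (adjusted p = 0.00129) and the teneurin Tenm2 by 1.74 ± 0.41 (adjusted p = 0.005). These 4 genes were chosen among called genes whose mice did not overlap. In the 3 control mice together Flrt3 had 18 UMIs, Lrrtm2 9 and Dscam 24, so that these passed the filter mostly through the Phase I ROP mice. Cntnap2 was called lower by 1.34 on the log2 scale (a change of -1.34 ± 0.45, adjusted p = 0.0338), and was not called without the 118 cells (adjusted p = 0.105). Of 11 tested genes that distinguish cone bipolar subtypes 3 were called, near the share of 29.6% over all tested genes. The protocadherins Pcdh17 (log2 change 1.94 ± 0.28) and Pcdh10 (1.11 ± 0.37) were called higher and Cpne9, a copine, lower (-3.92 ± 0.78, adjusted p = 0.00169), from 189.2 CPM ± 167.9 in control to 11.6 CPM ± 10.3 in Phase I ROP (SD, n = 3 each). Of 6 tested genes of the ON cascade, Gnao1, the G protein subunit coupled to Grm6, was called higher (0.86 ± 0.22) and Gng13 lower (-2.08 ± 0.50), beside 29.6% of all tested genes called in either direction.

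**Figure D4:**
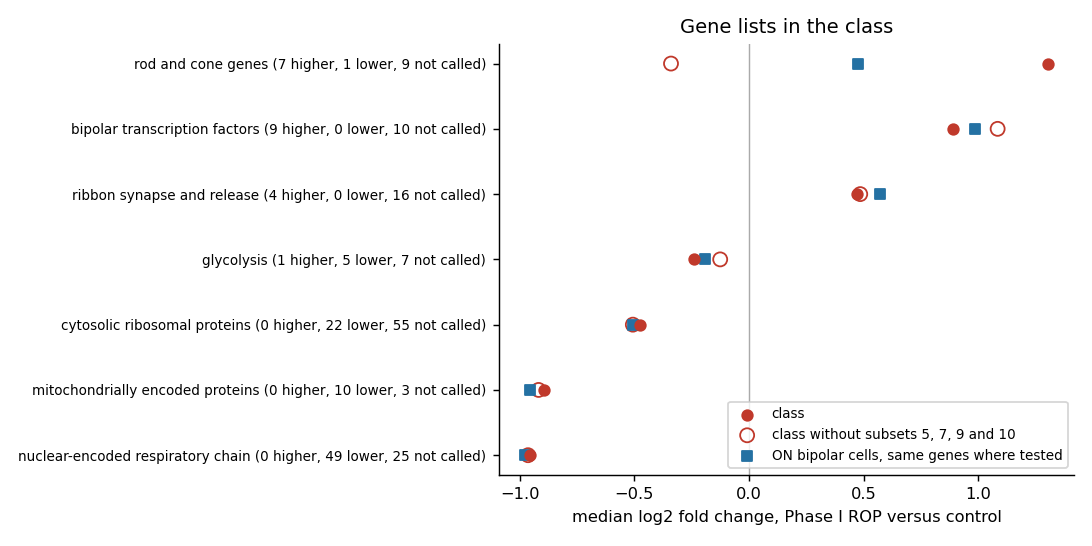
Median log2 fold change of each gene list, Phase I ROP versus control, in the class (filled circles), in the class without subsets 5, 7, 9 and 10 (open circles) and in ON bipolar cells (squares), for lists with at least 3 tested genes of which most members were tested; the labels give the counts in the class. Bipolar transcription factors lie at 0.89, nuclear-encoded respiratory chain genes at -0.96, and the open circle of rod and cone genes at -0.34 against 1.31 for the filled one.

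Most tested genes of the respiratory chain were called lower in the Phase I ROP mice. The counts in this paragraph are to be read beside the 14.7% of all tested genes called lower and the 15.0% called higher. Of 74 tested nuclear-encoded members, 49 were called lower and none higher, with a median log2 change of -0.96. Uqcrq, a subunit of complex III, was at 446.6, 294 and 408.4 CPM in the control mice and at 113.2, 73.5 and 134.1 CPM in the Phase I ROP mice, which did not overlap (log2 change -1.66 ± 0.28, adjusted p = 0.000545). The complex I subunits Ndufb6, Ndufa12 and Ndufb4 fell by 2.15, 1.87 and 1.80 on the log2 scale. The summed level of the list was 24262.8 to 29798.4 CPM in the control mice and 12123.3 to 13153.4 CPM in the Phase I ROP mice. Of 13 mitochondrially encoded proteins, 10 were called lower, with a median of -0.89. Their sum was 67895.6 to 79669.7 CPM in the control mice and 51941.7, 23564.3 and 26285.8 CPM in the Phase I ROP mice, of which mouse 1 was the highest. Of 77 cytosolic ribosomal protein genes, 22 were called lower and none higher, with a median of -0.48. Without the 118 cells 43 were called lower, where 1341 of all 3858 tested genes were called in either direction. In glycolysis, 5 of 13 tested genes were called lower (among them Ldha, -0.99 ± 0.23, and Gapdh, -0.79 ± 0.22), while Hk1, the hexokinase of neurons, rose by 1.51 ± 0.30 (adjusted p = 0.0016).

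Some RNAs other than mRNA were also far lower in Phase I ROP. Rn7sk (chr9:78175303-78175633, minus strand), a small nuclear RNA that has no poly(A) tail, was at 232.6, 268.1 and 354 CPM in the control mice and at 6.66, 0 and 0 CPM in the Phase I ROP mice, in which 1 UMI was found against 190. The ratio of the pooled levels was 104.4, with a 95% exact interval of 18.5 to 4146.5 that covers counting error only. In the 5 diet mice Rn7sk was at 10.0 CPM or less. The mitochondrial ribosomal RNAs mt-Rnr2 and mt-Rnr1 fell by 2.63 and 2.16 on the log2 scale (SE 0.44 and 0.35), with mt-Rnr2 at 25279 to 45323.9 CPM in the control mice and 3325.3 to 7795.9 CPM in the Phase I ROP mice. In Rn7sk and mt-Rnr2 the 3 control libraries stood apart from all 8 libraries of mice given STZ. The labels used here give no preparation date, so that STZ and a difference in preparation of the control libraries cannot be told apart in any comparison with control. These RNAs differed between the same libraries as the respiratory chain and ribosomal protein genes, and their part in those changes was not tested.

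Among genes with at least 20 CPM in both groups, the 5 largest decreases were Coa4, Gm37357, Gm26764, Unc13d and Gm15950. Coa4 (chr7:100537071-100540369, plus strand), an assembly factor of cytochrome c oxidase, was at 653.5 to 916.4 CPM in the control mice and at 14.7 to 33.3 CPM in the Phase I ROP mice (log2 change -4.94 ± 0.34, adjusted p = 3.137e-07). Gm37357 (chr1:161811045-161814167), which GENCODE lists with the type TEC, for transcripts that await an experimental check, was at 3484.1 to 4674.4 CPM and 85.8 to 386.1 CPM. Unc13d, a vesicle priming gene, had a log2 change of -3.63 ± 0.33. Gm26764, a long noncoding RNA, lies within Sptlc2 on the opposite strand, and Gm15950, a pseudogene, within Mpv17l on the opposite strand. As it is not stated that the counting used strand, reads of these genes and their hosts cannot be told apart. The same holds for Jun, Six3 and Gjd2, which overlap Junos, Six3os1 and A530058N18Rik. It also holds for Flrt3, Lrrtm2 and Hk1, which overlap Macrod2, Ctnna1 and Hk1os, and for Dusp5, which overlaps an antisense gene. Ctbp2 overlaps Fgfr2 on the same strand, and other named genes overlap annotated genes too. For each of the 5 largest decreases the 5 diet mice were also below every control mouse.

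The insulin-like growth factor pathway is one the study follows in this model. The counts in this paragraph are to be read beside the 15.0% of all tested genes called higher and the 14.7% called lower. Of the 12 genes of this pathway in the data, 3 passed the filter, of which Igf1r and Irs2 were called. Igf1r, the receptor (chr7:67952827-68233668, plus strand), was at 116.3, 56.2 and 77.2 CPM in the control mice and at 206.4, 250 and 219.9 CPM in the Phase I ROP mice, without overlap (log2 change 1.58 ± 0.32, adjusted p = 0.00175). Irs2, an adaptor of insulin and IGF receptors, was called higher by 3.62 ± 0.63 (adjusted p = 0.00065), from 6 to 51 UMIs in all, so that it passed the filter through the Phase I ROP mice. Igf1 itself was at 113.4 CPM ± 38.6 and 147.1 CPM ± 40.6 (SD, n = 3 each) and did not pass the test (log2 change 0.54 ± 0.35, adjusted p = 0.25). Of 9 tested genes of fatty acid handling, the adiponectin receptor Adipor1 (1.30 ± 0.36) and the elongase Elovl6 (1.77 ± 0.46) were called higher, and the fatty acid binding protein Fabp5 (-0.83 ± 0.25) and Lpcat1 (-0.93 ± 0.32) lower. Of 8 tested genes of cholesterol synthesis and uptake, only Msmo1 was called, lower (-2.01 ± 0.45), a share near the 14.7% of all tested genes. Among 11 tested stress genes, Atf4, the transcription factor of the integrated stress response, rose by 2.13 ± 0.25 (adjusted p = 3.396e-05), from 88.4 to 154.3 CPM in the control mice to 450.5 to 500 CPM in the Phase I ROP mice. Ddit4, an inhibitor of mTORC1 signalling, rose by 2.40 ± 0.46, and Hspa5 and Dnajb1 were called higher too. The chaperone Hspa8 fell by 0.87 on the log2 scale (SE 0.20).

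**Figure D5:**
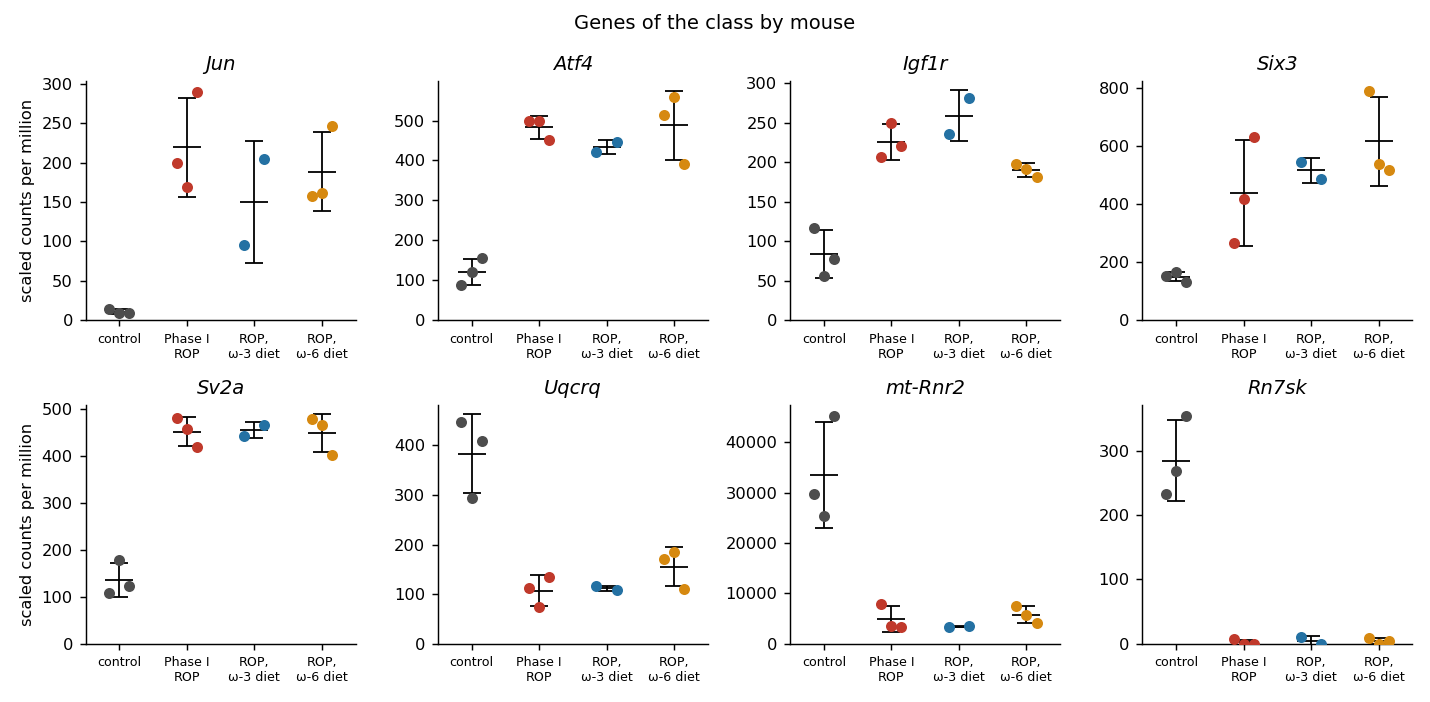
TMM-scaled CPM of 8 genes in the class, by group; each point is a mouse, and bars give the mean and SD. For Jun, Atf4, Igf1r, Six3 and Sv2a all 8 mice given STZ lie above the 3 control mice, and for Uqcrq, mt-Rnr2 and Rn7sk all lie below.

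Rod genes were among the largest increases. Of 17 tested rod and cone genes, 7 were called higher and 1 lower, beside 15.0% and 14.7% of all tested genes. Some of them, such as Rp1 with 3 UMIs in the control mice and 39 in the Phase I ROP mice, passed the filter mostly through the group where they were high. Prph2, a protein of photoreceptor outer segments, rose by 3.53 ± 0.41 (adjusted p = 3.396e-05) and Pdc, phosducin, by 3.08 ± 0.48 (adjusted p = 0.00028) on the log2 scale. Without the 118 cells, Prph2, Nrl and Rp1 no longer passed the filter on low counts, and 1 of 9 tested members was called higher (Pdc) and 3 lower. Summed over 5 rod markers, the class held 221 to 520.2 CPM in the control mice and 984.7 to 2605.4 CPM in the Phase I ROP mice, and the part of rod RNA in the other changes was not tested. Of the glial list 1 gene was tested, Glul, which was called higher (1.41 ± 0.41), also without these cells. The 5 Müller glia markers summed to 102.4 to 160 CPM in the control mice and to 181.6, 155.2 and 818.4 CPM in the Phase I ROP mice, so that mouse 3 stood apart. Of the amacrine list 1 gene was tested and not called, and of the ganglion cell list none passed the filter. The 5 ganglion cell markers summed to 11.8, 1093.6 and 18.6 CPM in the control mice and 6.98 to 40.8 CPM in the Phase I ROP mice, so that control mouse 2 stood apart.

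Whether the class differed from ON bipolar cells in its change was tested in 1 fit with both cell types of each mouse. Of 6192 genes, edgeR called 0 (0.0% of those tested), 271 had an unadjusted p under 0.05, and DESeq2 called 0. For the genes named above the changes in both cell types are given side by side, and both rest on the same mice. On the log2 scale Jun changed by 4.46 in the class and 2.67 in ON bipolar cells (difference 1.70 ± 0.84, adjusted p = 0.999), Atf4 by 2.13 and 1.70, Igf1r by 1.58 and 1.38, Six3 by 1.71 and 1.72, Sv2a by 1.86 and 1.66, and Uqcrq by -1.66 and -1.77. The lowest unadjusted p was that of Plxna4, a semaphorin receptor subunit, which was 323 CPM ± 19.2 in control and 516.7 CPM ± 177.4 in Phase I ROP in the class (difference of changes 1.62 ± 0.30, adjusted p = 0.361). The next genes are given for those outside the rule with at least 20 CPM in the class in both groups. Among the next values above 0 were those of Prph2, Pan3 and Atxn1. Those below 0 were Isl1, Socs2, CT010467.1, Cep170b and Gm42418 (Isl1 -0.93 ± 0.24, adjusted p = 0.948). Igf1 was called higher in ON bipolar cells (0.85, adjusted p = 0.0253) and not in the class, but the difference of -0.30 ± 0.42 did not pass the test (adjusted p = 1). None of these values can be called particular to the class.

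The last comparison set the ω-6 diet against the ω-3 diet, both in Phase I ROP mice. The class made up 2.98%, 4.33% and 3.35% of kept cells in the mice of the ω-6 diet and 2.43% and 2.77% in those of the ω-3 diet (means 3.56% ± 0.700 and 2.60% ± 0.245, SD, exact permutation p = 0.2, two-sided). Among the class and ON bipolar cells it made up 55.3% ± 7.64 and 40.4% ± 0.679 (SD, n = 3 and n = 2), without overlap and with the same exact permutation p = 0.2, the smallest that 3 mice against 2 allow. The highest value, 63.4%, was that of the third mouse of the ω-6 diet, which had 45 members and 26 ON bipolar cells. With 3 or more marker genes asked for, the shares of kept cells overlapped (2.10% ± 0.659 and 1.46% ± 0.529, exact permutation p = 0.6).

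Of 5534 genes tested between the diets in the class, edgeR called 0 (0.0% of those tested), DESeq2 called 0, and 273 had an unadjusted p under 0.05, with 0.775 as the smallest adjusted p. Igf1 (log2 change ω-6 minus ω-3 of 0.09 ± 0.45) and Igf1r (-0.47 ± 0.28) were among those not called, as were all 20 leading genes, Vsx1 at 0.15 ± 0.27 and Slit2 at -0.41 ± 0.30. Among genes with at least 20 CPM in both groups, the lowest unadjusted p values of changes above 0 were those of mt-Rnr2 (0.73 ± 0.18), Sncg, mt-Rnr1, Syngr3 and Nrl, and below 0 those of Mtss1, Zfp638, Zfp422, Arhgap32 and Ppil4, all with adjusted p = 0.969. mt-Rnr2 was at 7488.2, 5631.3 and 4124.8 CPM on the ω-6 diet and at 3348.1 and 3451.4 CPM on the ω-3 diet, and thus higher in 3 of 3 mice without passing the correction. Sncg, a gene of ganglion cells, was at 178.2 CPM ± 73.6 and 30.1 CPM ± 42.6 (SD, n = 3 and n = 2), and the summed level of 5 ganglion cell markers in the class was 390.9 to 849.3 CPM on the ω-6 diet and 572.8 and 17.0 CPM on the ω-3 diet. With the first mouse of the ω-3 diet left out, 17 genes were called, a fit with 1 mouse in that group in which this mouse was assumed to vary like the others. Among them were Nefl, Sncg, Stmn2, Calb2 and Thy1, which are among the leading genes of subset 10. With the third mouse of the ω-6 diet left out, 2 genes were called, mt-Rnr2 among them. These genes were named after their values were seen.

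No list held a gene called between the diets. Bipolar transcription factors had a median of -0.17 over 20 tested genes, adhesion and guidance genes 0.01 over 39, ribbon synapse genes 0.01 over 27 and nuclear-encoded respiratory chain genes 0.20 over 73, beside 0.00 over all genes tested. Genes of fatty acid handling had a median of -0.32 over 13 tested genes, and those of cholesterol synthesis 0.56 over 8, which was -0.82 over the 3 tested without the 118 cells. The highest median was that of ganglion cell genes, 1.21 over 7 tested, none of which passed the filter without these cells, followed by the 2 mitochondrial ribosomal RNAs at 0.74. Of 6783 genes tested for a difference between the class and ON bipolar cells in the change between the diets, edgeR called 0 (0.0% of those tested) and DESeq2 called 0, and 269 genes had an unadjusted p under 0.05. The lowest p values are given for genes outside the rule with at least 20 CPM in the class on both diets. Of differences above 0, they included those of the photoreceptor genes Pdc (difference 1.58 ± 0.37, adjusted p = 0.832) and Pde6g, then Fabp7 and Rp1. Of differences below 0, they were those of Eif1ad, Ppil4, Zfp422, Dnajb9 and Rpl8. Rod markers summed to 1470.7 to 4942.3 CPM in the class on the ω-6 diet and 2042.7 and 2712.7 CPM on the ω-3 diet. 1 gene was called when the second mouse of either diet was left out, and 4, among them Pdc, Pde6g and Pcp4, when the third mouse of the ω-6 diet was.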

How the data were processed

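Single-cell RNA of whole P10 retinas was measured in 11 mice. The authors counted UMIs with umis in bcbio-nextgen, assigned reads with Rapmap to mouse transcripts (GRCm38, GENCODE M23) and excluded barcodes with fewer than 500 reads; the deposited table holds their UMI counts, whole numbers without normalization, of 25311 genes in 20067 cells. Whether the counting used strand is not given in the sources used here.

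The members and gene lists were chosen with earlier results of these data known. UMIs of the members were summed per mouse (122440 to 301866) and tested with edgeR 4.0.16 (quasi-likelihood test, TMM scaling, default filter on low counts, Benjamini-Hochberg adjustment over all tested genes, threshold 0.05) between the 2 groups compared. In the fit against ON bipolar cells the mouse was a block. Shares were tested over mice by exact permutation, two-sided. p-values measure the spread between the samples of a group. Subsets were made with scanpy 1.11.5 (1000 variable genes, 15 principal components, 15 neighbours, resolution 0.8). No doublet caller was used, and leaving out the 5% of members with the most UMIs was an alternative. Titles number the mice of each group from 1. Deviations of same-numbered control and Phase I ROP mice correlated at 0.0102 to 0.0476, and those of differently numbered mice at -0.0299 to 0.00993. Between the diets the values were 0.0622 and 0.176 for same-numbered mice and -0.176 to 0.101 for the others. The numbers were not taken to pair the mice, but whether they do is not known.

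Named genes were, in each list, up to 4 called genes whose mice did not overlap with a mean of at least 20 CPM in 1 group. To these were added the 5 largest increases and decreases with at least 20 CPM in both groups. Where no gene was called, the 5 lowest p in each direction were taken, with at least 20 CPM in both groups and outside the rule genes. Igf1, Igf1r, the rule genes and the 20 leading genes were named too. Others named were chosen after their values were seen. Some genes that the rule names are not reported here. Positions came from GENCODE M21 (GRCm38) and promoters from RefSeq (GRCm38.p6).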

Additional observations from a re-analysis of the deposited data

How the results depend on the processing

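Between Phase I ROP and control edgeR called 1368 genes and DESeq2 887, of which 882 were shared, and fewer were called with 3 or more marker genes (668, of 2233 tested), without members holding genes of other types (879, of 2826 tested) and in sums thinned to equal depth (713, of 2914 tested), where fewer genes were tested. Leaving out each mouse in turn gave 839 to 1258 calls. With the replicate number as a block 1275 genes were called, and with the block 9 genes were called between the diets. Whether the numbers pair the mice is not known. Without a filter on low counts 12 genes were called between the diets, 15 differed in their Phase I ROP change from ON bipolar cells, among them Calb2, Nefl and Stmn2, and 7 in their diet change, all 7 photoreceptor genes. Leaving out a mouse gave 0 to 17, 0 to 2 and 0 to 4 calls in these 3 comparisons, and asking for 3 or more marker genes gave 1 call (Isl1) and 2 calls (Pdc among them) in the differences from ON bipolar cells. The share of the class among the class and ON bipolar cells, lower by 5.59 percentage points in Phase I ROP, was higher by 4.28 with 3 or more marker genes; the cause was not tested. The other shares kept their direction in every alternative run. Of 102 named changes, 63 kept direction and side of the threshold in every alternative. The diet change of Igf1 (0.09) turned to -0.19 without the 118 cells, and ranged from -0.38 without mouse 1 of the ω-3 diet to 0.94 without its mouse 2, with -0.23 without mouse 2 of the ω-6 diet. The differences from ON bipolar cells turned to -0.38 for Prph2 (Phase I ROP) and -0.71 for Pdc (diets) without the 118 cells. With 122440 to 301866 UMIs per mouse, most genes of several lists did not reach the filter, and changes in them were not detectable at this depth.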
